A study of Mus musculus with 16 samples.

Results

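A set of 10 genes of the smooth muscle contractile apparatus was followed in mouse spleen: *Acta2*, *Tagln*, *Myh11*, *Cnn1*, *Actg2*, *Des*, *Smtn*, *Lmod1*, *Mylk* and *Myl9*. They were chosen by symbol, and all 10 were found among the 54838 genes of the count table. RNA sequencing covered 16 samples from C57BL/6 spleens, 8 called size-selected and 8 called whole spleen, with no other genotype and no treatment given. Size-selected samples hold the cells that remained on a strainer after the minced tissue had been enzymatically dissociated and its red cells lysed, and their labelled source is spleen glia. How whole spleen was prepared is not described separately, so the digestion, the lysis and the strainer cannot be told apart as parts of the difference. The same 8 numbers occur in both groups, 4 from males (407, 408, 427 and 435) and 4 from females (436, 445, 447 and 460). The labels do not say whether a number is 1 animal or a pool, and give no age.

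Smooth muscle shortens when myosin filaments pull on actin filaments anchored at dense bodies and at the cell membrane. Calcium entering the cell binds calmodulin, which activates myosin light chain kinase, and the phosphorylated light chain lets the myosin heads cycle. Many of the genes for this apparatus are switched on by serum response factor and its partner myocardin, through a promoter element called the CArG box. In the spleen such cells lie in the capsule, the trabeculae and the walls of arteries. Some reticular stromal cells of lymphoid organs also carry *Acta2* and *Des*, and platelets carry *Myl9*, so these genes are not exclusive to muscle.

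The promoters of *Acta2* and *Myl9* are shown because, of the 7 contractile genes with a RefSeq promoter sequence (GRCm38.p6), only they held a CArG box or a close match. No entry was found for *Tagln*, *Myh11* and *Actg2*. The 250 bases before the start in that table were searched, and positions are counted back from that start. GENCODE places both starts further upstream than the RefSeq promoter table: 217 of the 250 *Acta2* bases and 44 of the *Myl9* bases lie in an exon of its gene model, so both *Acta2* matches fall in what GENCODE annotates as the first exon. For *Myl9* the 206 bases up to the GENCODE start are shown (chr2:156775214-156775419, plus strand). For *Acta2* each match is shown within 30 bases (chr19:34255438-34255467 and chr19:34255388-34255417, minus strand). The sequences run 5′ to 3′, and capitals mark each match to the 10-base box, which is CC, then 6 bases of A or T, then GG, or a like box with a single G or C among those 6.
Acta2, first match: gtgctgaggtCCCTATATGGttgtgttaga
Acta2, second match: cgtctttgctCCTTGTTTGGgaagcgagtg
Myl9: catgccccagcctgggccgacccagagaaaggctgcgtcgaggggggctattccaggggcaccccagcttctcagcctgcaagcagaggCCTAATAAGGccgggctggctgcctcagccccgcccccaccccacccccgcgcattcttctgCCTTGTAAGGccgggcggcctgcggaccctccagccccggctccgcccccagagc

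*Myl9* held the exact box CCTAATAAGG at bases 161 to 152 before the RefSeq start and a like box, CCTTGTAAGG, at bases 99 to 90. *Acta2* held 2 like boxes, CCCTATATGG at bases 84 to 75 and CCTTGTTTGG at bases 34 to 25. Among all 32851 promoter windows of that length, 1.47% held an exact box and 8.59% an exact or a like box, on either strand. The MCAT motif (CATTCC on either strand), which TEAD factors bind, was in the windows of *Acta2*, *Smtn*, *Lmod1* and *Mylk*, and in 12.6% of all windows. A match describes letters in a window and shows no binding.

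Totals ran from 13119992 to 19944440 estimated counts in the size-selected samples and from 12153770 to 16282454 in whole spleen. Levels are given in CPM, which are counts scaled to a common library total after adjustment by TMM, a method that allows for differences in composition. Markers of several other cell types moved with the contractile genes. By edgeR 37.5% of all 14510 genes tested were higher in the size-selected samples. All tested genes of the fibroblast and reticular list (8), the pericyte list (6), the mesothelium list (6) and the endothelium list (6) were higher. So were those of the glia list (5) and of the megakaryocyte and platelet list (5, median log2 fold change 1.57). All 4 B cell and all 4 T cell markers were lower, against 30.4% of all genes tested. The part of these cell types in the results below was not tested, and in bulk RNA fewer cells of a type and less RNA per cell cannot be told apart. Of 8 genes that respond to tissue dissociation, such as *Fos* and *Hspa1a*, 7 were higher in the size-selected samples, against 37.5% of all genes tested. Their part was not tested either.

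All 10 contractile genes were higher in the size-selected samples, by 4.70 (*Myl9*) to 7.05 (*Myh11*) on the log2 scale. Each was higher in 8 of 8 number pairs, and for none of them did the groups overlap. Across the 14510 genes tested, 67.9% were called (edgeR quasi-likelihood test, Benjamini-Hochberg adjusted p under 0.05), 37.5% as higher and 30.4% as lower. With the number as a block 38.1% were called higher, again with all 10 contractile genes. Of the genes tested, 23.3% had every size-selected sample above every whole spleen sample. The median log2 fold change was 6.38 over the 10 genes and 0.05 over all genes tested. For 4 of the 10 (*Tagln*, *Myh11*, *Actg2* and *Des*), the lowest size-selected sample was at least 10 times the highest whole spleen sample, a gap found in 2.17% of the genes tested. With the male numbers alone the log2 fold changes were 4.12 (*Myl9*) to 6.39 (*Myh11*), and with the female numbers alone they were 5.27 (*Smtn*) to 7.77 (*Des*).

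Both smooth muscle actins were higher. *Acta2*, the smooth muscle alpha actin (chr19:34241090-34255590, minus strand, GRCm38), had 361 CPM in the lowest, 1116 in the median and 1937 in the highest size-selected sample. In whole spleen it had 3.92, 8.13 and 40.6 CPM. The lowest size-selected sample was thus 8.89 times the highest whole spleen sample, and the log2 fold change was 6.28 (SE 0.53, edgeR adjusted p = 7.83e-09). *Actg2*, the enteric gamma actin that is best known from gut muscle (chr6:83512905-83536265, minus strand), had 53.6, 122 and 337 CPM against 0.327, 1.30 and 4.24. Its log2 fold change was 6.58 (SE 0.49, edgeR adjusted p = 1.72e-09). *Acta2*, *Actg2* and the other actins are near-identical in their coding parts, so the share of reads assigned to each of them is uncertain.

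*Myh11*, the smooth muscle myosin heavy chain (chr16:14194535-14291372, minus strand), is the member most often used to define the cell type. It had 70.1, 229 and 387 CPM in the lowest, median and highest size-selected sample, and 0.131, 0.871 and 4.65 CPM in whole spleen. The whole spleen values rest on 2 to 57 counts per sample. Its rise of 7.05 on the log2 scale (SE 0.52, edgeR adjusted p = 1.54e-09) was above that of 99.1% of the genes tested.

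Of the members, 4 bind or cap the actin filament. *Tagln*, which encodes the actin-bundling protein transgelin (chr9:45929619-45936058, minus strand), had 177, 567 and 856 CPM against 1.44, 3.83 and 16.5. It rose by 6.49 on the log2 scale (SE 0.51, edgeR adjusted p = 3.45e-09). *Cnn1*, calponin, an actin-bound inhibitor of myosin's ATPase (chr9:22099216-22109630, plus strand), had 18.5, 58.3 and 253 CPM against 0.0687, 0.618 and 2.45. *Cnn1* had an SD of 76.7 about a mean of 77.1 CPM in the size-selected samples (n = 8), but of 30.7 about 51.9 CPM without number 460 (n = 7). Its rise of 6.48 on the log2 scale (SE 0.68, edgeR adjusted p = 1.11e-07) became 5.78 without number 460, the sample with the highest value.

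*Smtn*, smoothelin, a marker of contractile smooth muscle (chr11:3517523-3540612, minus strand), had 41.2, 74.8 and 119 CPM against 1.37, 2.46 and 7.83. Its log2 fold change was 4.74 (SE 0.36, edgeR adjusted p = 2.19e-09). *Lmod1*, leiomodin, which nucleates actin filaments (chr1:135324807-135368065, plus strand), was the least abundant member, with 4.01, 11.7 and 21.9 CPM against 0, 0.232 and 0.560. Its whole spleen samples held 0 to 8 counts each, so its log2 rise of 5.54 (SE 0.53, edgeR adjusted p = 4.01e-08) rests on few counts on that side.

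*Des*, desmin, the intermediate filament that links dense bodies (chr1:75360329-75368579, plus strand), showed the widest gap between groups. Its lowest size-selected value of 138 CPM was 22.5 times the highest whole spleen value of 6.14 CPM. The median was 302 CPM and the highest 863 CPM in the size-selected samples, against a median of 2.35 CPM in whole spleen. The log2 fold change was 6.80 (SE 0.48, edgeR adjusted p = 9.75e-10).

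The kinase and its target, together with *Smtn*, had the smallest changes of the members. *Mylk*, myosin light chain kinase (chr16:34745210-35002420, plus strand), had 64.8, 140 and 257 CPM against 0.642, 5.01 and 7.75, a log2 rise of 5.07 (SE 0.39, edgeR adjusted p = 2.94e-09). *Myl9*, the regulatory light chain that the kinase phosphorylates (chr2:156775420-156781658, plus strand), had 177, 449 and 881 CPM against 6.10, 16.1 and 34.2. Its log2 fold change was 4.70 (SE 0.42, edgeR adjusted p = 1.32e-08). *Myl9* was the most abundant contractile gene in whole spleen, ahead of *Acta2*, with means of 17.7 ± 10.6 and 13.8 ± 12.6 CPM (SD, n = 8), a gap within the spread.

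**Figure D1:**
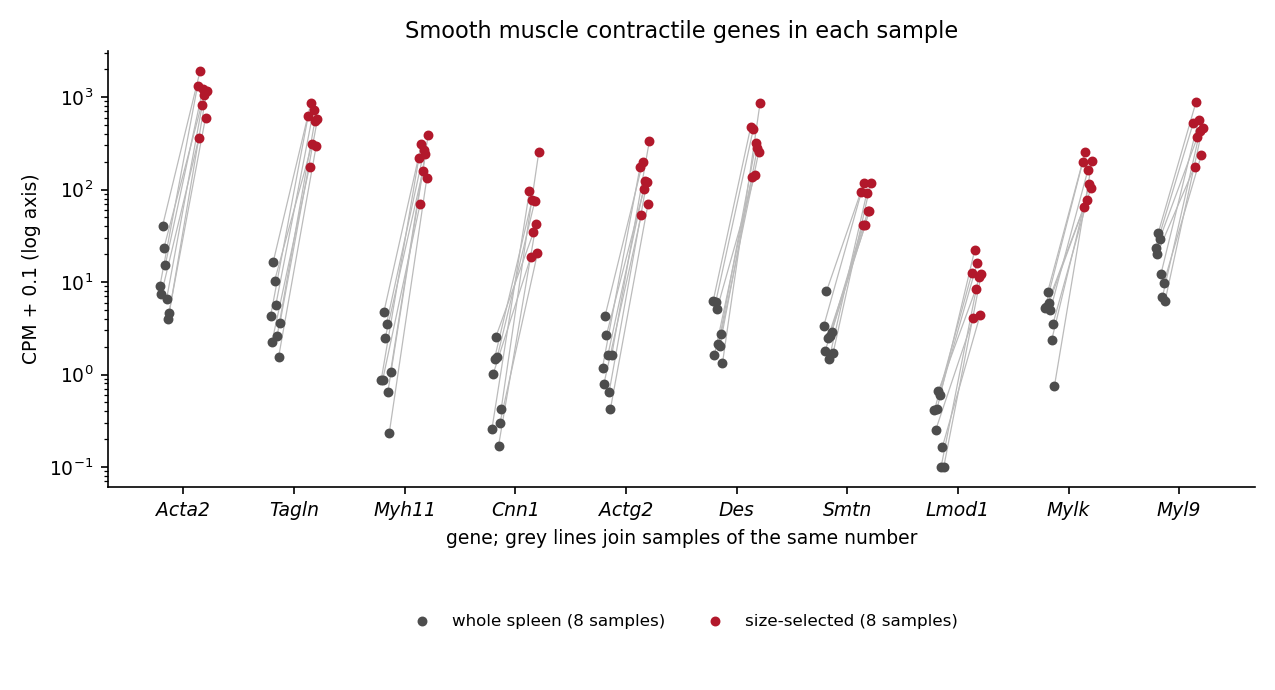
Level of each contractile gene in CPM plus 0.1 on a log axis, with 1 point per sample (8 grey whole spleen and 8 red size-selected) and lines joining samples of the same number. For each gene every red point lies above every grey point, and the narrowest gap is that of Myl9, whose lowest size-selected sample is 5.18 times its highest whole spleen sample.

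The size-selected values of all 10 genes had been multiplied by a constant under 1 in the deposited table, and those of *Cnn1* by a second one as well (0.7699 to 0.8579 over the 8 samples). In all, 3898 genes (7.11%) carried such constants. Dividing the constants out gave log2 fold changes of 4.78 (*Myl9*) to 7.13 (*Myh11*), with *Cnn1* at 6.86. All 10 genes remained called.

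Per kilobase of exon, the size-selected samples held the genes in a stable order at its upper end. *Acta2* led at 485 ± 220 CPM per kilobase (SD, n = 8), followed by *Myl9* at 393 ± 188 and *Tagln* at 259 ± 117, and each was above the next in 8 of 8 samples. *Des* at 97.8 ± 62.9 and *Actg2* at 95.01 ± 58.2 did not differ beyond their spread, with *Des* above in 5 of 8 samples. Both spreads lean on number 460. Without it the SD in CPM went from 236 to 135 for *Des* and from 90.6 to 52.5 for *Actg2* (n = 7). *Myh11* (29.3 ± 13.4), *Cnn1* (28.2 ± 28.03) and *Smtn* (17.7 ± 7.24) were likewise close, each above the next in 6 of 8 samples. *Mylk* at 13.1 ± 6.05 and *Lmod1* at 2.87 ± 1.51 CPM per kilobase closed the order. The order is that of the deposited values, in which *Cnn1* alone of these genes carries a second constant, and it depends on the exon length used. In whole spleen *Myl9* led, at 15.2 ± 9.15 CPM per kilobase, with *Acta2* at 6.28 ± 5.75 and *Tagln* at 2.90 ± 2.59.

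The authors' deposited table of 2201 genes higher in the size-selected samples, from a count table of 54838, held all 10 contractile genes. It also held all 8 genes of the fibroblast and reticular list and all 6 of the glia list, and none of the B cell and T cell lists. Its mean TPM values, which carry no error, were 892 for *Acta2*, 679 for *Myl9* and 514 for *Tagln* in the size-selected group. The corresponding TPM values for whole spleen in the authors' deposited table were 8.37, 18.3 and 5.44. Below these genes the TPM order differed from that per kilobase of exon. Size-selected TPM was 179 for *Actg2*, 175 for *Des*, 92.3 for *Cnn1* and 68.6 for *Mylk*. *Myh11* at 45.8, *Smtn* at 35.0 and *Lmod1* at 3.91 followed.

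Broadly expressed relatives of these proteins showed no common direction. Of 11 such genes, 5 were higher, 4 were lower and 2 were not called, shares close to the 37.5% and 30.4% of all genes tested, and their median log2 fold change was 0.06. *Actb* and *Actg1*, the cytoplasmic actins of all cells, had log2 fold changes of -0.32 (SE 0.12) and -0.24 (SE 0.09), with edgeR adjusted p of 0.0214 and 0.0196. Neither was called after the constants were divided out, with edgeR adjusted p of 0.0666 and 0.0887. *Myh9*, the main non-muscle myosin heavy chain, rose by 0.52 (SE 0.13), *Vim*, the intermediate filament of mesenchymal and blood cells, by 1.65 (SE 0.16), and *Cnn2*, a calponin of many cell types, fell by 0.67 (SE 0.13). With the constants divided out the *Cnn2* value was -0.30 (edgeR adjusted p = 0.0325).

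**Figure D2:**
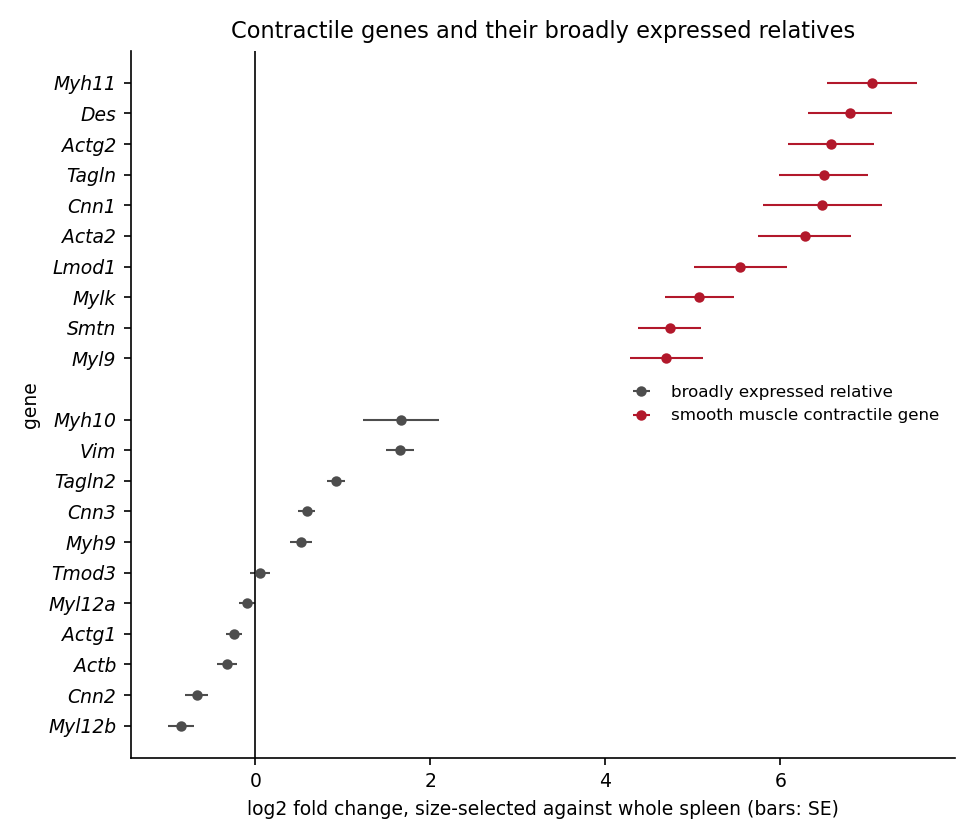
Log2 fold change of size-selected against whole spleen samples (edgeR, bars are SE) for the 10 contractile genes in red and 11 broadly expressed relatives in grey. The contractile genes lie between 4.70 and 7.05, and the highest relative, Myh10, lies at 1.66.

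Ratios within a sample do not depend on how its total is scaled. Each of 8 contractile genes was therefore divided by a relative in the same sample. *Myh11* had 409 to 1576 counts per 1000 *Myh9* counts in the size-selected samples and 1.21 to 24.3 in whole spleen. *Acta2* had 44.2 to 199 counts per 1000 *Actb* counts against 0.393 to 3.66, and *Des* had 278 to 1616 per 1000 *Vim* counts against 6.17 to 34.8. For all 8 ratios the groups did not overlap, and the log2 difference ran from 4.89 (*Myl9* to *Myl12a*) to 7.30 (*Cnn1* to *Cnn2*). The exact permutation p was 0.000155 for each, raw and adjusted over the 8 ratios, the smallest that 12870 splits can give. These splits do not keep the number pairs together. Each ratio was higher in 8 of 8 number pairs, and flipping the signs of 8 pairs can give no p under 0.0078. The contractile genes alone already had no overlap between groups, so the ratios are not separate support for their rise.

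Of 19 listed partners of the contractile proteins at the filament and the dense body, 18 were tested. By edgeR 17 of these were higher and none lower, against 37.5% and 30.4% of all genes tested, and their median log2 fold change was 3.54. *Tpm2* and *Tpm1*, the tropomyosins that lie along actin, rose by 5.15 (SE 0.45) and 3.93 (SE 0.21). *Cald1*, caldesmon, which holds back actin and myosin until calcium rises, rose by 5.04 (SE 0.29). *Synpo2* and *Pdlim3*, both proteins of actin anchoring sites, rose by 6.00 (SE 0.39) and 6.07 (SE 0.52). *Myl6*, the essential light chain that smooth muscle shares with other cells, was not called, with 659 ± 147 against 633 ± 92.7 CPM (SD, n = 8, edgeR adjusted p = 0.711).

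Genes of calcium handling and light chain phosphorylation moved both ways. Of 18 tested by edgeR, 12 were higher, 3 were lower and 3 were not called, against 37.5% higher and 30.4% lower among all genes tested, and the median log2 fold change was 2.46. *Kcnma1* and *Kcnmb1*, the pore and accessory subunits of the large calcium-activated potassium channel, had log2 fold changes of 5.64 (SE 0.63) and 5.21 (SE 0.73). *Casq2*, which stores calcium in the reticulum, rose by 6.14 (SE 0.61), *Prkg1*, the kinase through which nitric oxide relaxes muscle, by 5.14 (SE 0.62), and *Gucy1a1*, a subunit of the nitric oxide receptor, by 5.67 (SE 0.53). *Cacna1c*, the pore of the L-type calcium channel, had 3.003 ± 1.43 CPM in the size-selected samples (SD, n = 8) and at most 1 count in any whole spleen sample. The 3 lower genes were *Rock1* at -0.53 (SE 0.11), *Ppp1r12a* at -0.52 (SE 0.10) and *Rhoa* at -0.38 (SE 0.10), the kinase, phosphatase subunit and GTPase of a route that many cell types use. *Rhoa* was not called after the constants were divided out (edgeR adjusted p = 0.958).

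Among 9 transcription regulators, 6 were higher and 2 lower by edgeR, again against 37.5% and 30.4% of all genes tested, and the median log2 fold change was 1.47. *Myocd*, myocardin, had 7.12 ± 3.02 CPM in the size-selected samples (SD, n = 8) and 0 to 2 counts in each whole spleen sample (edgeR adjusted p = 9.67e-10). *Srf*, the factor it joins, was lower by edgeR, with 24.3 ± 3.09 against 30.2 ± 4.48 CPM and a log2 ratio between groups of -0.31 (SE 0.11, adjusted p = 0.0161), and was not called after the constants were divided out (edgeR adjusted p = 0.563). *Mef2c*, a factor of muscle and of B cells, fell by 1.25 (SE 0.21), with 203 ± 74.7 against 483 ± 134 CPM (SD, n = 8), and stayed lower at -0.89 after the constants were divided out (edgeR adjusted p = 0.000856). *Mkl1*, a myocardin relative found in many cells, was not called, at 0.10 (SE 0.13). *Foxf1* and *Tcf21*, regulators of mesenchyme around gut and spleen, rose by 6.98 (SE 0.49) and 5.85 (SE 0.41).

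Of 12 receptors that trigger contraction, 8 passed the count filter, and all 8 were higher, against 37.5% of all genes tested, with a median log2 fold change of 5.08. *Ednra*, an endothelin receptor, rose by 7.12 (SE 0.49), *Avpr1a*, a vasopressin receptor, by 7.28 (SE 0.55), and *Agtr1a*, an angiotensin receptor, by 5.19 (SE 0.55). *Adra1b*, an alpha adrenergic receptor through which sympathetic nerves act on smooth muscle, had 4.17 ± 2.10 CPM in the size-selected samples (SD, n = 8) and at most 2 counts in any whole spleen sample. *Tbxa2r*, the thromboxane receptor that platelets also carry, changed least, by 0.74 (SE 0.14). The filter needs counts in 1 group only, so low genes pass it through the group in which they are higher.

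**Figure D3:**
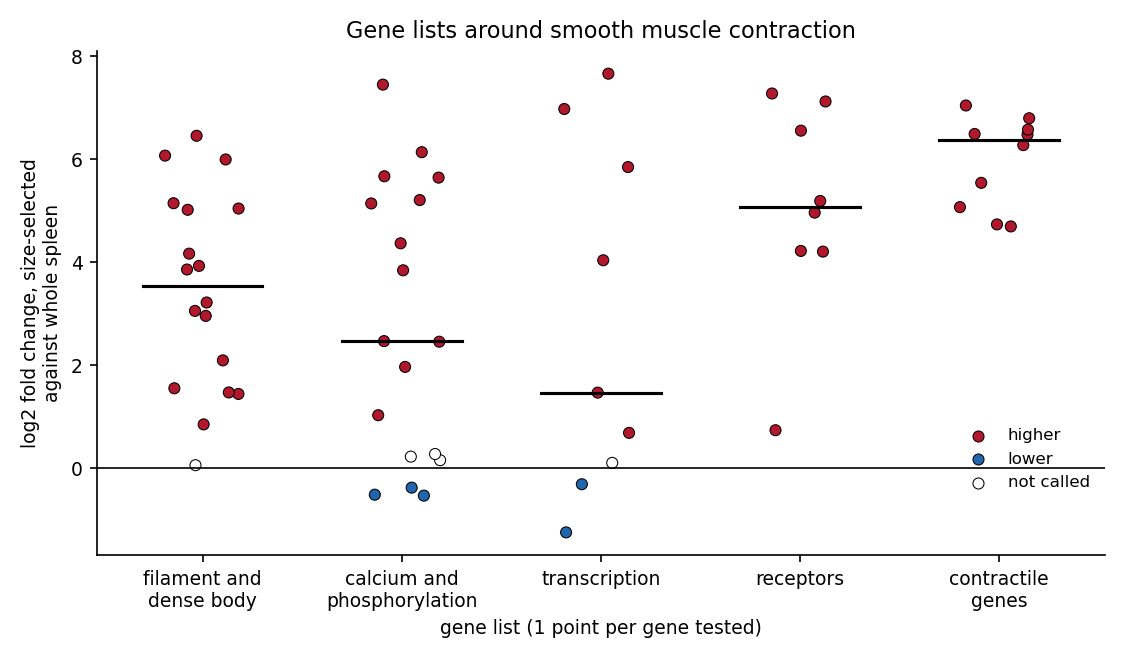
Log2 fold change of size-selected against whole spleen samples for each tested gene of 4 lists and of the 10 contractile genes, with red for called higher, blue for called lower, white for not called (edgeR) and a bar at the median. All tested receptors and contractile genes are red, while the calcium and transcription lists hold 3 and 2 blue points.

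Skeletal muscle markers were low in both groups, and 2 cardiac markers were higher in the size-selected samples. Of 8 skeletal muscle markers 2 passed the filter. Of these *Mylpf*, a fast light chain, was lower at -1.03 (SE 0.33) and the other was not called, against 30.4% lower among all genes tested. With no count filter 7157 of 28235 genes tested were called higher by edgeR, among them 4 of the other markers, *Acta1*, *Ckm*, *Myh1* and *Pvalb*. *Acta1*, the skeletal actin, had 1.06 ± 0.788 against 0.114 ± 0.145 CPM (SD, n = 8). The summed level of the list was 3.99 to 12.9 CPM in the size-selected samples and 3.57 to 10.97 CPM in whole spleen, and *Myh4*, a fast myosin, had 0 counts in all 16 samples. Of 6 cardiac markers 2 passed, *Actc1*, cardiac actin, and *Tnnt2*, cardiac troponin T. Both were higher, against 37.5% of all genes tested. Their whole spleen counts were 0 to 6 and 0 to 1, so both passed the filter through the size-selected group. *Actc1* rose by 5.09 (SE 0.76), and as an actin near-identical to *Acta2* in its coding part it has an uncertain share of reads. *Tnnt2* had 0.865, 3.10 and 19.6 CPM in the lowest, median and highest size-selected sample, and 1 count in 1 whole spleen sample with 0 in the others. Its fitted log2 rise of 8.36 (SE 1.02, edgeR adjusted p = 7.99e-07) was above that of each contractile gene, and with a single count on the whole spleen side it depends on the prior count. With no count filter *Tnni3*, cardiac troponin I, was also called higher by edgeR (adjusted p = 0.00114), with a median of 0.145 CPM in the size-selected group, a highest value of 5.99 CPM from 91 counts in 1 sample, and no more than 1 count in each whole spleen. The summed cardiac list was 1.73 to 27.0 CPM against 0 to 0.420 CPM, while *Myh6*, the alpha heavy chain of cardiac myosin, had at most 1 count in any sample. *Myl7* and *Nppa* reached at most 0.286 and 0.197 CPM in the size-selected samples. With no count filter neither was called (edgeR adjusted p = 0.304 and 0.922).

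Within the size-selected samples the contractile genes rose and fell together. Number 408 was the lowest sample for 9 of the 10 genes, with a median of 0.369 times the group's median. Number 427 was the highest for 6 genes, with a median of 1.61 times the group's median, and number 460 for 4 (*Myh11*, *Cnn1*, *Actg2* and *Des*). Over the 45 pairs of genes, the correlation of log2 CPM across the 8 samples had a median of 0.86 and ran from 0.63 to 0.99. Genes of 1 library share its composition and scaling, so these values describe the samples and are not tested. Number 408 also had the lowest endothelium list, at 2049 CPM against 2112 to 5585 in the others, and the lowest fibroblast list, at 1172 against 1180 to 3831. Its pericyte (219 CPM), mesothelium (21.7 CPM) and dissociation response (3507 CPM) lists were the lowest too. From the top, its B cell (2120 CPM) and T cell (235 CPM) lists stood at rank 2 and its glia list at rank 4. Number 427 had the highest endothelium (5585 CPM), pericyte (680 CPM) and dissociation response (7048 CPM) lists, and the lowest B cell (647 CPM) and T cell (35.2 CPM) lists. The part of these in the contractile levels of numbers 408 and 427 was not tested.

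In whole spleen the correlation had a median of 0.66 over the 45 pairs. Number 427 was the highest sample for 7 genes and number 435 was among the top 2 for 7. Number 427 held 40.6 CPM of *Acta2* against 3.92 to 23.3 in the others, and it was also highest in the fibroblast list (64.9 against 5.50 to 25.3 CPM) and the endothelium list (431 against 123 to 292 CPM). Counts there are few, and the *Lmod1* and *Cnn1* values rest on at most 8 and 35 counts a sample.

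**Figure D4:**
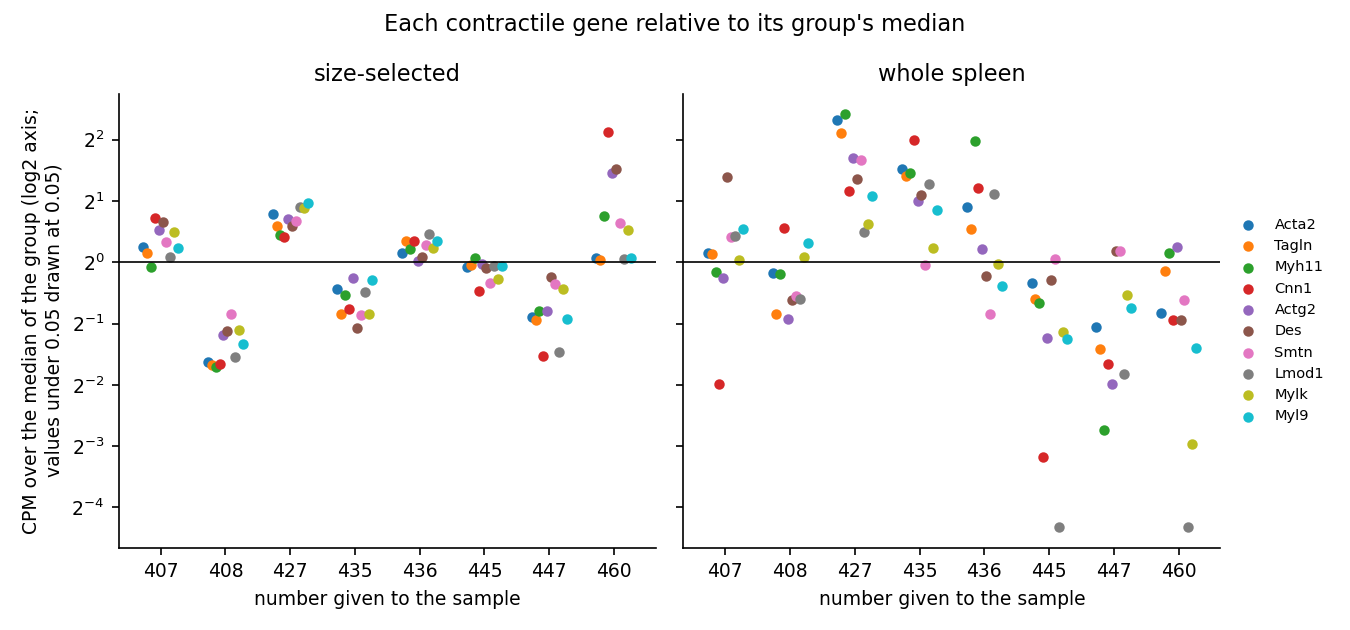
CPM of each contractile gene divided by the median of its group, on a log2 axis, for the 8 numbers in size-selected (left) and whole spleen samples (right), with 1 colour per gene. The genes of number 408 lie together at a median of 0.369 in the left panel, while Cnn1 of number 460 reaches 4.35.

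The genes whose size-selected levels most resembled the mean log2 CPM of the contractile genes were taken from the 9299 genes whose log2 CPM averaged 3 or more. The closest were *Tpm2* (r = 0.99 over 8 samples), *Ppp1r12b*, a subunit of the phosphatase that resets the light chain (0.98), and *Gcdh*, a mitochondrial dehydrogenase (0.97). *Spire1*, *Ptgs2*, *Fbxw8*, *Tgfb1i1* and *Acer3* followed, at 0.95 to 0.96. Over the 8 whole spleen samples, which did not choose them, *Tpm2* had r = 0.92 and *Gcdh* 0.79, while *Ppp1r12b* had -0.18 and *Fbxw8* -0.09. The median over all ranked genes was -0.06 in the size-selected samples and -0.12 in whole spleen.

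The contractile genes did not all change in the same proportion. Counts per 1000 *Acta2* counts were compared after the values had been seen, for the 9 other genes. An exact permutation test over 12870 splits was used, adjusted over the 9, and its splits do not keep the number pairs together. *Myl9* had 392 to 491 counts per 1000 *Acta2* counts in the size-selected samples and 806 to 2747 in whole spleen. The groups did not overlap, and the ratio fell by 1.76 on the log2 scale (exact adjusted p = 0.0014). *Smtn* had 49.8 to 115 against 90.0 to 717 and *Mylk* 93.8 to 179 against 141 to 883, and both ratios fell, by 1.75 and 1.38 (exact adjusted p = 0.00373 each). *Myh11* went the other way, with 160 to 330 against 33.3 to 227 counts, a rise of 0.91 (exact adjusted p = 0.0143). By number pairs, the *Myl9* and *Smtn* ratios were lower in 8 of 8 and that of *Mylk* in 7, while that of *Myh11* was higher in 7. The ratios of *Tagln*, *Cnn1*, *Actg2*, *Des* and *Lmod1* to *Acta2* did not pass the threshold, with differences of 0.19, 0.08, 0.15, 0.22 and -0.74. Of these, *Lmod1* passed with a pseudocount of 2 in place of 0.5 (-1.58, exact adjusted p = 0.0014) and without number 445 (-0.99, exact adjusted p = 0.0399), and *Tagln* passed without number 460 (0.30, exact adjusted p = 0.0262). The megakaryocyte and platelet list, whose cells carry *Myl9*, summed to 54.0 to 196 CPM in whole spleen and 89.4 to 617 CPM in the size-selected samples, and its part in the *Myl9* ratio was not tested.

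Number 460 stood apart in its actins. *Actg2* made up 22.3% of the counts of *Actg2* and *Acta2* together in its size-selected sample (exact 95% interval 21.9 to 22.8, of 31416 counts) and 25.3% in its whole spleen sample (16.9 to 35.2, 24 of 95 counts). In the other 7 numbers the share was 9.16 to 12.9% in the size-selected samples and 7.69 to 10.8% in whole spleen. The intervals cover counting error only. *Cnn1* per 1000 *Acta2* counts was 216 in the size-selected sample of number 460 against 33.8 to 72.5 in the others (273 against 42.3 to 84.5 with the constants divided out), and *Des* was 736 against 173 to 424. In its whole spleen sample *Cnn1* was 70.4 per 1000 *Acta2* counts and *Des* 268, both within the range of the other numbers.

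**Figure D5:**
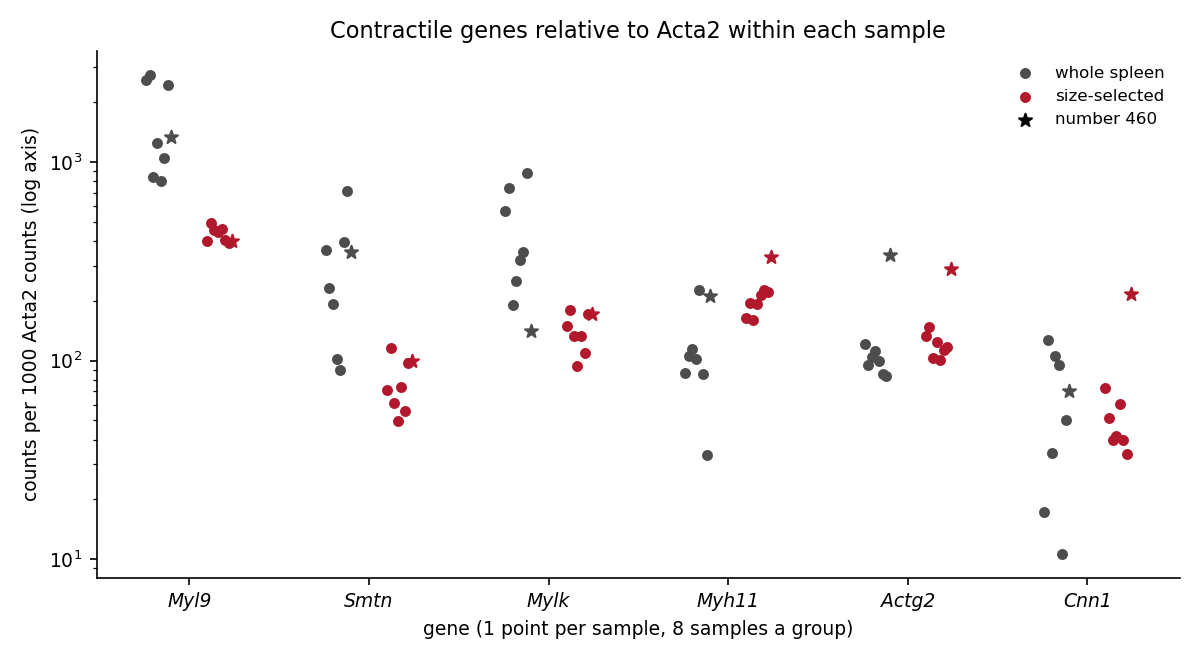
Counts of 6 contractile genes per 1000 Acta2 counts in each sample, on a log axis, for whole spleen (grey) and size-selected samples (red), with number 460 as a star. Red and grey points do not overlap for Myl9, and both Actg2 stars, at 288 and 338, stand above the other numbers.

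Whether the difference between fractions depended on sex was tested as an interaction. None of the 10 genes was called, and none of the 15760 genes tested was (0%) at an edgeR adjusted p under 0.05, with 744 genes (4.72%) under an unadjusted p of 0.05. That share was 11.3% without number 427 and 3.15% without number 460, the widest moves when 1 number was left out. DESeq2 and the edgeR fit with the number as a block called 3 genes each, none of them a contractile gene. The 10 estimates were all positive, larger in females, at 0.99 (*Smtn*) to 2.11 (*Cnn1*), and the edgeR adjusted p was 0.99987 for each. Leaving out 1 number moved them widely, to between 0.83 (without 460) and 3.498 (without 436) for *Cnn1*, between 0.68 (without 435) and 3.18 (without 436) for *Lmod1*, and between 0.82 (without 460) and 2.36 (without 436) for *Myh11*. Without number 460 the estimates of *Des*, *Mylk* and *Smtn* were 0.99, 0.54 and 0.65, from 1.76, 1.07 and 0.99. Since the genes move together, 10 estimates of the same sign are not 10 separate results. Unadjusted edgeR p-values were 0.0173 for *Myl9* and 0.0306 for *Des*, and above 0.05 for the other 8.

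Sex within each fraction was compared after the values had been seen. In whole spleen all 9 contractile genes tested had lower estimates in females, from -0.77 (*Myh11*) to -1.63 (*Myl9*) on the log2 scale. Unadjusted edgeR p-values were under 0.05 for 5 of them (*Acta2*, *Tagln*, *Des*, *Mylk* and *Myl9*), as for 16.1% of all genes tested (10.4% without number 445 and 21.3% without 427), and the 9 genes move together. After adjustment *Myl9* alone was called, among 26 of 13383 genes (0.194%). That total varied with the fit: it was 518 with DESeq2, 273 with no count filter, 261 without number 427 and 87 without 436, but 17 without 407, 12 without 435, 8 without 445, 8 without 447 and 7 without 460. *Myl9* had 8.66 ± 2.82 CPM in females and 26.7 ± 6.30 in males (SD, n = 4 each), with no overlap, a log2 difference of -1.63 (SE 0.25, edgeR adjusted p = 0.0187). The call was lost without number 435, 445, 447 or 460, with edgeR adjusted p of 0.0742, 0.0884, 0.0761 and 0.0726. *Mylk* likewise had no overlap between the sexes in whole spleen, at 0.642 to 4.89 CPM in females and 5.13 to 7.75 in males. Of 17 summed lists, 5 were also lower in every female than in every male whole spleen. What share of all genes parted the sexes in this way was not determined. The megakaryocyte and platelet list summed to 54.0 to 79.7 CPM in females and 99.7 to 196 in males, the endothelium list to 123 to 166 and 167 to 431, and the B cell list to 3495 to 3813 and 3863 to 5008. The dissociation response list summed to 1203 to 1636 and 1718 to 1915 CPM, and the list of transcription regulators to 451 to 611 and 716 to 800. Their part in the *Myl9* difference was not tested. The male numbers are also the 4 lowest, so sex and anything that follows the numbers cannot be told apart. In the size-selected samples 6 of 15127 genes (0.0397%) and none of the 10 contractile genes were called by edgeR, and *Myl9* had 425 ± 140 CPM in females and 488 ± 299 in males (SD, n = 4 each).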

How the data were processed

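Trim Galore, STAR, RSEM, DESeq and the build mm10 are named, without versions or roles, per the submitters' processing notes. The deposited count table holds estimated counts per gene, and the whole spleen values have at most 2 decimals. In the size-selected columns the deposited values of 3898 genes were each a 2-decimal value times 1 to 3 constants (0.659 to 0.964), a fact found from the values. Of the tested genes, 23.6% carry one. The authors' second table gives, per the file headers, a mean signal, a log2 fold change, a test score, p-values and mean TPM and FPKM values per group. The authors' signal, score and FPKM values were not used.

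Counts were rounded for edgeR 4.0.16 in R 4.3.3 (filterByExpr minimum count 10, TMM, quasi-likelihood F test, group as the only term). CPM uses TMM-scaled totals. Ratios used log2 of counts plus 0.5. Alternatives were RLE scaling, no filter, DESeq2 1.42.0, the replicate block, restored counts, a ratio pseudocount of 2, each sex alone and leaving out each number. Within-fraction sex comparisons and ratios to *Acta2* were added after the data had been seen. The numbers were taken to pair the samples: deviations from the group means correlated at 0.12 to 0.38 between same-numbered samples (mean 0.21, against -0.03 for other numbers). Where nothing says the numbers are separate animals, p-values measure the spread between these samples. The contractile genes and gene lists were chosen with earlier results of these data known, so no list is independent support for its direction. The named genes are the 10 contractile genes, genes of those lists, and the 8 genes with the highest r described in the text.

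The fits were tested on simulated counts in which 200 genes differed by a log2 of 2. The fraction fit recovered 97.5% of 198 among 13263 genes, with 10 unchanged genes called, and the interaction fit 75.5% of 200 among 14246 genes. The changed genes were drawn above a minimum level in whole spleen, and they were few, whereas 67.9% of genes were called in the real comparison. The recovery therefore does not cover genes with few whole spleen counts, such as *Lmod1*, or so wide a shift in composition. All 151 named genes matched GENCODE M21 (GRCm38) by identifier, and coordinates are 1-based from it. Promoter windows are RefSeq's on GRCm38.p6, and the search for motifs used the 250 bases before the start.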

Additional observations from a re-analysis of the deposited data

Results flagged for a closer look

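In groups of 8 samples, a value was singled out when its gap to the nearest other sample over the group's range exceeded Dixon's 95% critical value. Of 54 groups of 8 values examined, 3 met this, where chance gives about 2.7 at 1 in 20. All 3 are ratios to *Acta2*, and in each the sample apart is the highest, number 460. For *Actg2* the gap was 0.631 of the range in the size-selected samples and 0.757 in whole spleen. For *Cnn1* it was 0.589 in the size-selected samples, and 0.629 with the constants divided out. The *Actg2* values of number 460 were 288 and 338 counts per 1000 *Acta2* counts, against 101 to 148 and 83.3 to 121 in the other numbers. The whole spleen value rests on 24 *Actg2* counts.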

How the results depend on the processing

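All 10 contractile genes remained called higher under each of the 15 alternatives to the comparison of fractions (RLE scaling, no count filter, DESeq2, the replicate block, restored counts, each sex alone and leaving out each of the 8 numbers). With the replicate block their log2 fold changes were 4.77 (*Myl9*) to 7.17 (*Myh11*), and it called 10076 genes in place of 9855. The block changed no call among the contractile genes or the ratios. Leaving out 1 number gave 5.78 to 7.04 for *Cnn1*, the widest such range of the 10. All 8 ratios to relatives passed the threshold in every alternative run. The interaction called 3 genes with DESeq2, 3 with the block and 1 without number 445, and none in the other alternatives. The erythroid list had 2 of 4 genes lower, against 30.4% of all genes tested, with 4 lower with the block and 1 with restored counts. With males only, 3 relatives in place of 5 were called higher, and with no count filter 4 skeletal muscle markers in place of 0. The ratio of *Lmod1* to *Acta2* passed the threshold with a pseudocount of 2 (-1.58) and without number 445 (-0.99), and that of *Tagln* without number 460 (0.30). The causes were not tested. In whole spleen, 0 to 8 counts of *Lmod1*, 1 to 35 of *Cnn1* and 2 to 57 of *Myh11* limit the precision of these genes.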

Other observations

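Other genes of the lists were described by where they stood. Of the 12 contraction receptors, *Chrm2*, a muscarinic receptor, was at 0 counts in all 8 whole spleen samples and at 0.965 ± 0.747 CPM in the size-selected samples (SD, n = 8), and it did not pass the count filter. *Chrm3*, the other muscarinic receptor listed, had 0.965 ± 0.6496 CPM against 0.253 ± 0.296, also under the filter. *Itga8*, an integrin of mesenchymal and smooth muscle cells, rose by 5.02 (SE 0.48), and *Ldb3*, a Z-disc protein, had 3.86 ± 2.00 CPM against 0.0350 ± 0.0991. *Pln*, which holds back the calcium pump of the reticulum, rose by 2.47 (SE 0.46), although its groups overlapped. *Ryr2*, the calcium release channel, had 0.795 ± 0.427 against 0.654 ± 0.546 CPM and was not called (edgeR adjusted p = 0.661).

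The glia list for which the size-selected samples are named summed to 65.2 to 467 CPM in those samples and 0.622 to 2.86 CPM in whole spleen, while *Acta2* alone had 361 to 1937 CPM in the size-selected samples. Among tested genes outside the contractile set, 153 had an exact CArG box in a promoter window and 47.7% of these were called higher, against 38.8% of the 10372 without one. No test was made of that difference.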
